A study of Rattus norvegicus with 2 samples.

Results

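The genes described here are those of MHC class I and of the pathway that supplies class I molecules with peptide, measured in 2 populations of rat natural killer (NK) cells. They were chosen by gene symbol in the annotation of the array. Chosen were all probe sets, each a set of short probes read as 1 signal, of the RT1 genes whose names start with RT1-A, RT1-CE, RT1-M, RT1-N, RT1-O, RT1-S or RT1-T, along with those of B2m, the TAP, tapasin, proteasome, chaperone and peptidase genes of the pathway, and the class I-like genes Cd1d1, Mr1, Hfe and Fcgrt. The rule found 51 of 31099 probe sets. Of these, 45 carried a single symbol and stood for 29 genes of 14217 on the array. The other 6 carried several RT1 symbols each and are named with all of them. Tapbpl was in the rule without a probe set of that name and is not analysed here, and no probe set carried a symbol of the RT1-O group.

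Both populations came from the spleens of PVG.7b rats aged 8 to 12 weeks, 9 rats in all, and had no treatment or engineered allele that the labels name. Other cells were first removed with antibodies to the T cell receptor, CD68, CD5, the Ig kappa chain and CD45RA, and the sorted cells were CD3-negative and NKR-P1A-positive. One population carried NKR-P1B, an inhibitory lectin-like receptor, without Ly49s3. The other carried Ly49s3, an activating receptor of the Ly49 family, without NKR-P1B, and purity was above 90% in both. Each population was hybridised to 1 array, so replicates are lacking, nothing could be tested, and a difference between the populations is here a difference between 2 arrays. The sources used here do not say how RNA of the rats was pooled. In bulk RNA, a smaller number of cells that make a transcript and less of it per cell cannot be told apart.

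As a check of the labels, Klrb1b, which encodes NKR-P1B, gave 1399 in NKR-P1B+ cells and 29.4 in Ly49s3+ cells, and Klrb1a, the gene of the shared NKR-P1A, had 3740 and 3813. Signals are in arbitrary units and cover 0 to about the same maximum on both arrays, 6639 and 6622. Values at or below 20.4, the median over both arrays, were set to that floor, and a probe set above it on at least 1 array is called measured. Of the 51 class I probe sets, 41 were above the floor on both arrays, 1 on the NKR-P1B+ array alone, 1 on the Ly49s3+ array alone, and 8 on neither.

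MHC class I molecules are heavy chains that bind beta-2-microglobulin, the product of B2m, and display peptides at the cell surface. The peptides are cut by the proteasome, in lymphocytes largely by its immunoproteasome form, carried into the endoplasmic reticulum by the transporter TAP, trimmed by ERAP1 and loaded with the help of tapasin, calreticulin, calnexin and the disulfide isomerase PDIA3. In NK cells class I is also what many of their own receptors read: rat Ly49 receptors bind class I molecules, and CD94/NKG2 receptors bind the nonclassical molecule called Qa-1 in mice and HLA-E in humans, whose rat counterpart is the product of RT1-S3. Rat heavy chain genes fall into the classical RT1-A group and the nonclassical groups named CE, M, N, O, S and T, which are many and alike in sequence.

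Most of the class I pathway had close to the same signal in both populations, as did most of the array, and 2 genes stood apart. Within 1.5-fold were 93.0% of the measured class I probe sets, against 88.7% of all measured ones. RT1-S3 had more signal in NKR-P1B+ cells on all 4 of its probe sets, by up to 1.81-fold, and Cd1d1, which encodes the lipid-presenting molecule CD1d, was 1.77-fold higher there too. Of 43 measured class I probe sets, 3 reached 1.5-fold toward NKR-P1B+, which is 6.98% of them, against 4.95% of all 16465 measured probe sets. None reached 1.5-fold toward Ly49s3+, against 6.38% of all. Taken over all signals, the share in the first direction is near the background, and none of the 43 reached 2-fold in either direction, against 2.79% of all. With 1 probe set per gene, the brightest, Cd1d1 alone of 26 measured genes remained at 1.5-fold (background 5.11%). The brightest RT1-S3 probe set was 1.49-fold apart.

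The log2 difference, NKR-P1B+ minus Ly49s3+, had a median of 0.11 over the 43 class I probe sets, with an SD of 0.30 and a range from −0.43 to 0.86. Over all measured probe sets the median was −0.03 and the SD 0.42. Of the 43, 29 lay nominally above 0, toward NKR-P1B+, and 14 below. Of all 16465 measured probe sets, 7502 lay above 0 and 8923 below. The 43 hold several probe sets for each of 8 genes, so they are not independent of each other. All 3 at 1.5-fold lay among the 27 with a mean signal of 200 or more, 11.1% of them. Of all 5018 probe sets in that range, 3.03% were as far apart in that direction and 2.17% in the other. Within 1.5-fold were 88.9% of the 27, against 94.8% of the 5018. These directions hold for the deposited scale. When the arrays were scaled to their poly-A spikes, which are bacterial RNAs added to the sample, the median of all measured probe sets moved to 0.47 and that of the class I probe sets to 0.64.

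Part of the error of such a difference was described by how far probe sets of the same gene disagree. For each gene the brightest pair of probe sets above the floor on both arrays was compared, grouped by the signal of the dimmer. The SD was scaled to a single probe set, so the spread of the difference between a pair is larger. This SD, in log2 units, was 0.32 for signals under 50, 0.28 from 50 to 100, 0.22 from 100 to 200, 0.18 from 200 to 400 and 0.15 above 400. Such probe sets were read from the same RNA, sort and arrays, so variation between rats, between sorts and between arrays is not in these values. A multiple of this SD is thus no measure of the full error. The differences themselves had an SD of 0.33 over all measured probe sets with a mean signal of 200 or more. Of the 8 class I genes with several measured probe sets, 5 had all of them on the same side of 0. The other 3, Canx, Erap1 and RT1-CE5, had probe sets on both sides.

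**Figure D1:**
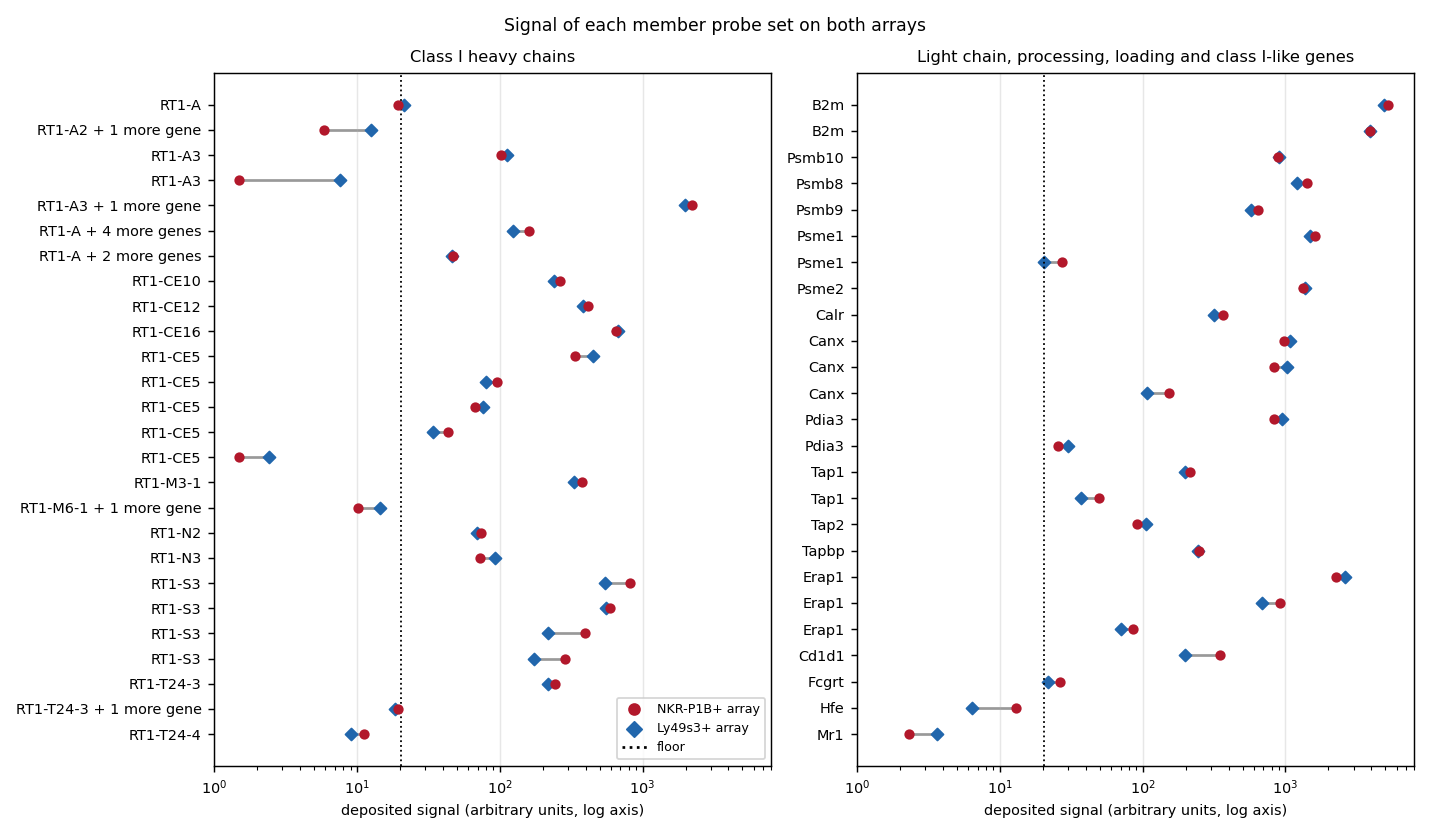
Deposited signal in arbitrary units (log axis) of each of the 51 class I probe sets on the NKR-P1B+ array (red circles) and the Ly49s3+ array (blue diamonds), with 1 row per probe set and a dotted line at the floor of 20.4. Most pairs lie almost on top of each other, and wider gaps above the floor are seen for 3 RT1-S3 rows and for Cd1d1.

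Among the classical heavy chains, the RT1-A genes encode the main peptide-presenting molecules. The probe set shared by RT1-A3 and RT1-A2 had signals of 2215 in NKR-P1B+ cells and 1980 in Ly49s3+ cells, a log2 difference of 0.16 against an SD of 0.15 for its signal range. The RT1-A3 probe set had 102 and 112. A probe set named RT1-A alone had 19.4 and 21.3, just around the floor. The probe set shared by RT1-A, RT1-CE16 and RT1-A1 had 47.3 and 46.5. The classical genes were thus within 1.12-fold on every measured probe set of their own or shared among them, apart from the shared probe set of RT1-A and 4 CE genes given next.

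The CE genes form the largest nonclassical group on the array. The probe set shared by RT1-A, RT1-CE11, RT1-CE13, RT1-CE7 and RT1-CE5 had 160 in NKR-P1B+ cells and 123 in Ly49s3+ cells, 1.29-fold higher on the first. RT1-CE10 had 266 and 240.3, RT1-CE12 414 and 384, and RT1-CE16 648 and 669. These 3 genes were within 1.11-fold. RT1-CE5 had 4 measured probe sets that disagreed. Its brightest had 334 in NKR-P1B+ cells and 449.5 in Ly49s3+ cells, a log2 difference of −0.43 and the lowest of all class I probe sets. The other 3 had 95.2 and 79.5, 67.4 and 76.7, and 43.6 and 33.8. Their mean difference with the brightest was 0.003 with an SD of 0.37 over the 4 probe sets, so no direction can be given for RT1-CE5.

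Of the other nonclassical groups, RT1-M3-1 encodes the counterpart of the mouse molecule H2-M3, which presents formylated peptides of bacteria and mitochondria. It had 379 in NKR-P1B+ cells and 333 in Ly49s3+ cells, a log2 difference of 0.19 against an SD of 0.18. RT1-T24-3 had 243 and 217. RT1-N2 had 74.3 and 69.7, and RT1-N3 had 72.9 and 93.2, which ran in opposite directions at log2 differences of 0.09 and −0.35. Each of these lay within 1.28-fold. RT1-T24-4, the probe set of RT1-M6-1 and RT1-M4, that of RT1-A2 and RT1-A1, that of RT1-T24-3 and RT1-T24-4, and 1 probe set each of RT1-A3 and RT1-CE5 were at or below the floor on both arrays.

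RT1-S3 was the heavy chain gene with the largest differences. Its probe sets had 814 in NKR-P1B+ cells and 545 in Ly49s3+ cells, 596 and 552, 394 and 217, and 284 and 174. The first array was higher in each pair. The log2 differences were 0.58, 0.11, 0.86 and 0.71 in that order, with a mean of 0.56 and an SD of 0.32 over the 4 probe sets. On 3 probe sets the difference was 3.80, 4.81 and 3.97 times the SD of their signal range and on the other 0.73 times. Whether the 4 probe sets are independent of each other was not tested. That of 394 and 217 is of the kind marked x by the manufacturer, which holds probes that can match other transcripts. The probe sets of 814 and 545 and of 284 and 174 are marked a, another mark of the manufacturer. That of 596 and 552, which showed no difference beyond the SD, carries no mark. Without RT1-S3, the 16 measured heavy chain probe sets had a median of 0.10, and none was 1.5-fold apart (background 4.95% toward NKR-P1B+ and 6.38% toward Ly49s3+). The 8 heavy chain probe sets marked x or s, the kinds that can read several transcripts, had a median difference of 0.13, and the 12 others had 0.14. The others include the probe set of RT1-A, RT1-CE16 and RT1-A1 and that of RT1-A, RT1-CE11, RT1-CE13, RT1-CE7 and RT1-CE5. The marks thus do not separate shared probe sets from those of a single gene.

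RT1-S3 lies between RT1-N3 and RT1-T24-4 in the gene order of the rat reference. Of the measured genes nearest to it in that order, RT1-N3, RT1-N2 and H2-Q7-ps1, which stand 1, 6 and 7 genes before it, had log2 differences of −0.35, 0.09 and 0.12. RT1-T24-3, Gnl1 and Prr3, which stand 5, 13 and 14 genes after it, had 0.16, −0.20 and 0.18. None of these was as far from 0 as the mean over RT1-S3. The receptors that read its product crossed with it as follows: Klrc1 and Klrc2, which encode NKG2 chains, had 154 and 302 in NKR-P1B+ cells against 31.9 and 60.9 in Ly49s3+ cells, whereas Klrd1, which encodes their partner CD94, had 3149 and 3151.

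**Figure D2:**
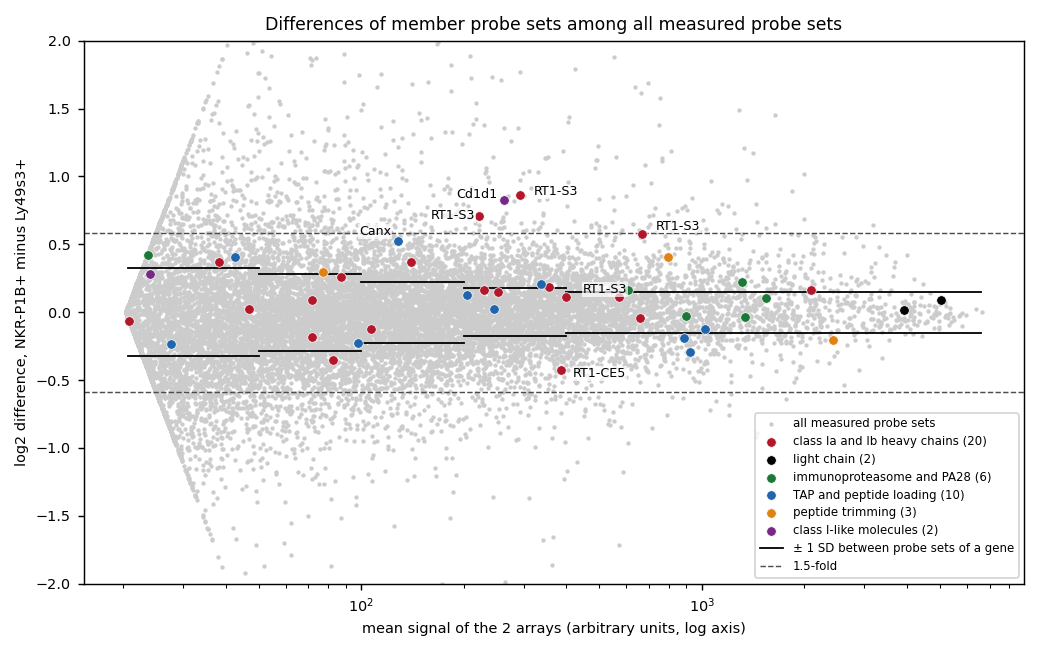
Log2 difference, NKR-P1B+ minus Ly49s3+, against the mean signal of the 2 arrays (log axis) for all measured probe sets (grey) and the 43 measured class I probe sets, coloured by role, with counts in the key. Black steps mark ± 1 SD between probe sets of the same gene and dashed lines 1.5-fold, and 41 grey points lie beyond the axis limits of −2 and 2. The class I points cluster near 0 apart from 3 RT1-S3 probe sets and Cd1d1.

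Class I genes share control elements, among them the interferon-stimulated response element (ISRE), bound by IRF and STAT factors, and sites for NF-kappa-B. RefSeq promoters of the GRCr8 assembly, which run from 250 bases before to 50 bases after the start of a gene, matched 30 of the 36 symbols in the class I probe sets. That assembly is of another rat strain (BN), and class I sequences vary between strains. Both strands were searched for an ISRE core (GAAA, any 2 bases, GAAA), for a kappa-B core (GGG, any 2 bases, TTCCC) and, chosen after the sequences were seen, for a shorter ISRE core (GAA, any 2 bases, GAAA). The upstream 250 bases of 6 genes are shown because they cover the light chain, the transporter, the classical and CE heavy chains and both genes that stood apart. Capitals mark matches to any of the 3 cores, and each sequence reads 5′ to 3′ on the strand of its gene.
B2m, chr3:129549080-129549329, plus strand: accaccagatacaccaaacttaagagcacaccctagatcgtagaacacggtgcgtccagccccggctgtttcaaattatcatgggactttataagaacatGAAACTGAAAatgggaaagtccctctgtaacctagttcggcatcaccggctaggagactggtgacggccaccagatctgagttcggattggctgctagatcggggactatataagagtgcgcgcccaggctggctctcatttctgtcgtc
Tap1, chr20:4668544-4668793, minus strand: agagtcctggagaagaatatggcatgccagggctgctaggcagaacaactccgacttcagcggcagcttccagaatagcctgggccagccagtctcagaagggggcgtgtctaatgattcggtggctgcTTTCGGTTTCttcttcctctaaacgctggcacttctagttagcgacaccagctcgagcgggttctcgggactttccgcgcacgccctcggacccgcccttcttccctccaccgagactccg
RT1-A2, chr20:4872621-4872870, plus strand: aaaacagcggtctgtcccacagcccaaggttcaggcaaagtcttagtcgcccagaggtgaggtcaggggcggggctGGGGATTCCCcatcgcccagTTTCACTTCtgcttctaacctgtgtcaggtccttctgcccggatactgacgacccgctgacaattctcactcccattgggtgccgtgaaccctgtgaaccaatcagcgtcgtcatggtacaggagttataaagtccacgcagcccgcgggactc
RT1-CE16, chr20:3265444-3265693, minus strand: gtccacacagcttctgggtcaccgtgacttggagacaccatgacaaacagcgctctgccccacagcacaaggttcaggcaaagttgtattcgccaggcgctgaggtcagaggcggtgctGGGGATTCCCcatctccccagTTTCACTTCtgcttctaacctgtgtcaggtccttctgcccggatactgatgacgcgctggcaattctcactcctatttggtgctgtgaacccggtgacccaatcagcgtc
RT1-S3, chr20:2675278-2675527, plus strand: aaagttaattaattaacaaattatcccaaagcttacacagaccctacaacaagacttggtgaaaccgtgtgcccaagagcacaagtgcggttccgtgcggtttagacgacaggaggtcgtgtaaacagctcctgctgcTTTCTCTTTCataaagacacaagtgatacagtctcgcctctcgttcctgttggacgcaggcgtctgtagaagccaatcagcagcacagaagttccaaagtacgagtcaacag
Cd1d1, chr2:174725030-174725279, minus strand: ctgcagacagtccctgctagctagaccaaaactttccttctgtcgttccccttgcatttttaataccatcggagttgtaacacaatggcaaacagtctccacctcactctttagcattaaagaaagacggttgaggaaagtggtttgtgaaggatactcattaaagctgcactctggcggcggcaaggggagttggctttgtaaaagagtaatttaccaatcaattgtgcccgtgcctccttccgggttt

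The ISRE core was found in 10 of 30 class I promoters (33.3%), against 3.92% of all 33469 promoters of the same length. The genes were B2m, Tap1, Tap2, Tapbp, Psmb8, Psmb10, Psme2, Fcgrt, RT1-N3 and RT1-S3. The kappa-B core was found in 7 (23.3%, against 2.18% of all), all of them heavy chains, namely RT1-A1, RT1-A2, RT1-A3, RT1-CE10, RT1-CE11, RT1-CE13 and RT1-CE16. In each of these 7 the shorter ISRE core began 20 or 21 bases after the start of the kappa-B core, as the RT1-A2 and RT1-CE16 sequences above show, and 67 of all promoters held both. The shorter core was in 12 class I promoters (40.0%, against 8.54% of all). In Psmb8, Tap2 and Tapbp matches overlapped one another. The RT1-S3 window held the ISRE core starting at position −112 from the gene start and no kappa-B core of these letters, and the Cd1d1 window held none of the 3. A match is a string of letters and no measured binding. Genes with the ISRE core were found on both sides of 0, from Tap2 at −0.22 and RT1-N3 at −0.35 to RT1-S3 at 0.56.

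B2m, the light chain that all classical heavy chains need to reach the surface, had signals of 5196 in NKR-P1B+ cells and 4871 in Ly49s3+ cells on 1 probe set and of 3939 and 3889 on the other. The log2 differences were 0.09 and 0.02, below the SD of 0.15 for signals of this size. The light chain thus showed no difference beyond that between probe sets, and the second value turned to −0.01 when a trend with signal was subtracted.

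The immunoproteasome replaces the standard catalytic subunits with Psmb8, Psmb9 and Psmb10. Psmb8 had 1412 in NKR-P1B+ cells and 1213 in Ly49s3+ cells, Psmb9 had 643 and 575, and Psmb10 had 890 and 906. The subunits were within 1.16-fold. Psme1 and Psme2 encode the PA28 cap that opens the proteasome. Psme1 had 1606 and 1490 on its main probe set and 27.3 and 20.3 on another at the floor, and Psme2 had 1325 and 1361. Over the 6 probe sets the median log2 difference was 0.13, with none 1.5-fold apart (background 4.95% toward NKR-P1B+ and 6.38% toward Ly49s3+), a count near that background in so few. Among the standard counterparts and other activators, 4 genes were on the array and none was 1.5-fold apart (median −0.06, background 5.11% and 5.73% of genes). Psmb5, the subunit that Psmb8 replaces, had 1133 and 955.5, and Psmb7, the one that Psmb10 replaces, had 304 and 321.5. The assembly factor gene Pomp had 618 and 637, and the activator gene Psme4 444 and 511.

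TAP carries peptides into the endoplasmic reticulum as a pair of Tap1 and Tap2 products. Tap1 had 214 in NKR-P1B+ cells and 196 in Ly49s3+ cells on 1 probe set and 49.1 and 37.1 on the other, whereas Tap2 had 90.6 and 106. The log2 differences were 0.13, 0.40 and −0.22, which is 0.71, 1.25 and 0.79 times the SD of their signal ranges. Tapbp, which encodes tapasin, the bridge between TAP and class I, had 247 and 243. The chaperone gene Calr had 363 and 314. Canx, the gene of the membrane-bound chaperone calnexin, had 982 and 1068, 835 and 1025, and 154 and 107 on its 3 probe sets. Its brighter probe sets ran toward the Ly49s3+ array and the dimmest toward the other, with log2 differences of −0.12, −0.30 and 0.53, the last 2.35 times its SD, so no direction can be given for Canx. Pdia3 had 829 and 947 on 1 probe set and 25.5 and 30.0 on the other. The 10 probe sets of transport and loading had a median of −0.05, and none was 1.5-fold apart (background 4.95% toward NKR-P1B+ and 6.38% toward Ly49s3+). In so few probe sets a count of 0 is near that background.

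Erap1 encodes the aminopeptidase that trims peptides to the length class I binds, and its 3 probe sets disagreed. The brightest had 2267 in NKR-P1B+ cells and 2612 in Ly49s3+ cells, the next 913 and 690, and the dimmest 85.9 and 69.9. The log2 differences were −0.20, 0.40 and 0.30, with a mean of 0.17 and an SD of 0.33, so the spread between probe sets was larger than the mean difference.

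The class I-like genes encode molecules with the fold of a heavy chain and other ligands. Cd1d1 had 350.4 in NKR-P1B+ cells and 198.0 in Ly49s3+ cells on its single probe set. That log2 difference of 0.82 was 4.61 times the SD of its signal range, with no second probe set to compare. The measured genes nearest to Cd1d1 in the reference order had log2 differences of −0.27 (Dclk2, 2 genes before it), −0.39 (Lrba, 5 before), −0.04 (Rps3a, 8 before) and −0.02 (Etv3, 13 after). Fcgrt, which encodes the neonatal Fc receptor, had 26.5 and 21.8, near the floor. Hfe, a regulator of iron uptake (12.9 and 6.4), and Mr1, which presents vitamin metabolites (2.3 and 3.6), were below the floor on both arrays and have no measured difference.

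**Figure D3:**
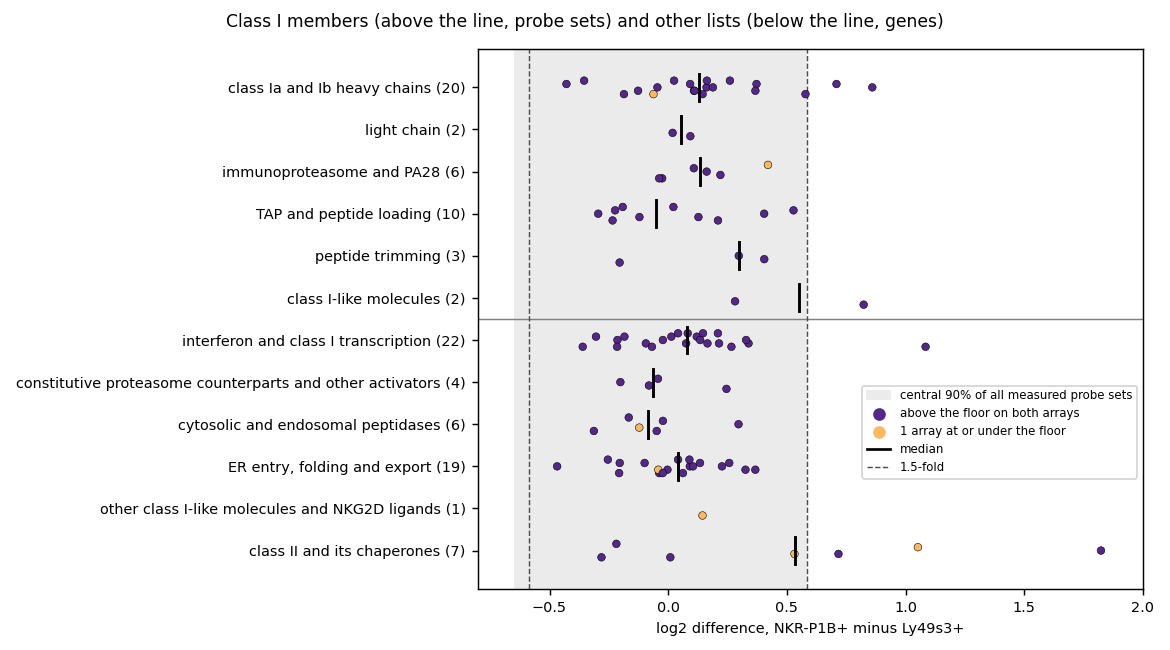
Log2 differences, NKR-P1B+ minus Ly49s3+, of the measured class I probe sets by role (above the line) and of measured genes in other lists (below it, 1 probe set each), with counts in the labels, black bars at medians, dashed lines at 1.5-fold and grey shading from −0.65 to 0.58 over the central 90% of all measured probe sets. Orange points have 1 array at or under the floor, and apart from RT1-S3, Cd1d1, Ifngr2 and 3 class II genes the points lie within 1.5-fold.

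Genes that work with the class I pathway were read from 5 further lists, with 56 genes on the array and 52 measured. Their median log2 difference was 0.03, against −0.02 over all 9114 measured genes. At 1.5-fold 1 gene was higher in NKR-P1B+ cells and none in Ly49s3+ cells, with backgrounds of 5.11% and 5.73% of genes. That gene was Ifngr2, a chain of the interferon gamma receptor, at 47.5 and 22.4, close to the floor. In the list of interferon signalling and class I transcription, 22 of 23 genes were measured, with a median of 0.08. Outside the rule for named genes, and chosen after their values were seen, 3 regulators of the list are given. Nlrc5, the coactivator of class I transcription, had 56.4 in NKR-P1B+ cells and 72.4 in Ly49s3+ cells. Irf1, an interferon-induced activator of class I genes, had 1110 and 1003, and Ciita, the class II coactivator, was below the floor (18.1 and 9.3). The 4 brightest genes of this list were within 1.16-fold: Ifngr1 had 2564 and 2422, Jak1 2372 and 2351, Irf8 1730 and 1847, and Nfkb1 1698 and 1971.

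Genes of entry into the endoplasmic reticulum, folding and export had a median of 0.04 over 19 measured of 20, with none 1.5-fold apart. Hspa5, the main chaperone of that compartment, had 3491 in NKR-P1B+ cells and 2921 in Ly49s3+ cells. The signal peptidase genes Spcs3 and Spcs1 had 2630 and 3035, and 2137 and 2462, and Ppib, a prolyl isomerase gene, had 1376 and 1398. Other peptidases had a median of −0.09 over 6 measured of 7, none 1.5-fold apart. Of these, Tpp2 had 729 and 594, Blmh 205 and 230, Nrdc 199 and 202, and Npepps 120 and 124. In the last list, other class I-like molecules and NKG2D ligands, 2 of 9 genes were on the array, and the measured one, Procr, had 22.5 and 7.6.

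Class II genes, which present peptides on antigen-presenting cells and stand in the same gene complex, had larger differences on these arrays than class I genes. RT1-Da, a class II alpha chain, had 346 in NKR-P1B+ cells and 97.7 in Ly49s3+ cells, 3.54-fold higher on the first. RT1-Db1, a beta chain, had 42.3 and 17.4, at least 2.07-fold, and Cd74, the invariant chain, had 197 and 120, 1.64-fold. RT1-Bb had 29.5 and 7.4 and the brightest RT1-Ba probe set 30.2 and 36.7. The other RT1-Ba probe sets, at 25.0 and 18.1, 23.2 and 3.8, and 20.5 and 8.4, ran toward NKR-P1B+. All lay close to the floor, so no direction can be given for RT1-Ba. RT1-DMa, at 26.3 and 30.6, and RT1-DMb, at 96.8 and 96.2, which help load class II, differed by less than 1 SD of their signal ranges. Of 7 class II genes, all measured, 3 reached 1.5-fold toward NKR-P1B+ and none toward Ly49s3+, against 5.11% and 5.73% of all measured genes, and whether class I and class II differ could not be tested with 1 array per population.

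Markers of other cell types are given because class II, Cd1d1 and RT1-S3 are also made by such cells, and their part in these differences was not tested. NK markers were strong on both arrays, with all 10 genes measured. Their summed signal was 23411 in NKR-P1B+ cells and 20425 in Ly49s3+ cells. Of the 10, 6 were higher in NKR-P1B+ cells and 4 in Ly49s3+ cells, with a median log2 difference of 0.28. Prf1, the perforin gene, had 4024 and 3006, and Gzmb, a granzyme gene, had 3973 and 2549, whereas Eomes had 1237 and 1820.5. Sums here add the genes of a list on the array, those below the floor included, and are carried by the brightest, so the direction of the single measured genes is given with each.

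B cell markers were measured for 4 of 9 genes, 3 of them higher in NKR-P1B+ cells, with a median log2 difference of 0.37 and sums of 367 and 381. Cd22 had 103 and 52.9, Fcrla 56.8 and 43.3, and Blnk 26.1 and 0.9, whereas Bank1, the brightest, had 156 and 248. Cd79b, Ms4a1, Ebf1, Cr2 and Fcer2 were below the floor on both arrays. Plasma cell markers were measured for 4 of 5 genes, all 4 higher in NKR-P1B+ cells, with a median of 0.72 and sums of 588 and 452. Prdm1, the brightest, had 377 and 353.0, and Jchain, the joining chain of secreted antibodies, had 98.1 and 33.4. Macrophage and monocyte markers were measured for 2 of 13 genes, both higher in NKR-P1B+ cells, with sums of 455 and 234. Lyz2, the lysozyme gene, gave most of that at 356 and 133.0, and Hmox1 had 26.8 and 17.4, while Cd68, Csf1r, Adgre1, Cd14 and the C1q genes were below the floor.

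Dendritic cell markers were measured for 3 of 6 genes, with sums of 4194 and 2768, and did not run one way. Itgax (2281 and 1716) and Cd83 (1901 and 965), which NK cells can also make, were higher in NKR-P1B+ cells and gave nearly all of the sum. Batf3, a transcription factor gene, had the largest difference of the list in the other direction, at 4.2 and 83.2, at least 4.08-fold. Flt3, Clec9a and Clec10a were below the floor. T cell markers were measured for 6 of 9 genes, 2 higher in NKR-P1B+ cells and 4 in Ly49s3+ cells, with a median of −0.05 and sums of 466 and 389. Cd6, the brightest, had 273 and 179, and Cd5, a target of the depletion, had 92.7 and 40.8. In the other direction Cd3g had 22.3 and 42.9, Cd28 30.6 and 36.0, and Ctla4 34.7 and 36.8, with Cd4 at the floor, and Cd3d, Cd3e and Cd8b were below it.

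Erythroid markers were measured for 3 of 7 genes, with sums of 359 and 318.5 and a median of −0.09. Hbb, the brightest, had 276 and 153, while Hemgn had 50.6 and 131 and Slc4a1 9.9 and 21.7. Neutrophil and mast cell markers were measured for 2 of 8 genes, both higher in Ly49s3+ cells (sums 96.1 and 199, Mcpt10 the brightest at 51.5 and 148). Stromal and endothelial markers were measured for 2 of 7, both higher in Ly49s3+ cells (sums 107 and 129.8, Acta2 the brightest), and platelet markers for 1 of 4, Pf4, at 30.9 and 26.6 (sums 60.3 and 50.6). Plasma cell, macrophage and most measured B cell markers thus lay in the direction of class II, Cd1d1 and RT1-S3, as did 6 of 10 NK markers. Of the B cell and macrophage lists, 5 of 9 and 11 of 13 genes were at or below the floor. Most measured T cell and erythroid markers lay in the other direction, with Cd4 and Slc4a1 near the floor. Cd6 and Hbb, the brightest of these lists, lay toward NKR-P1B+ cells. Dendritic cell markers were divided.

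**Figure D4:**
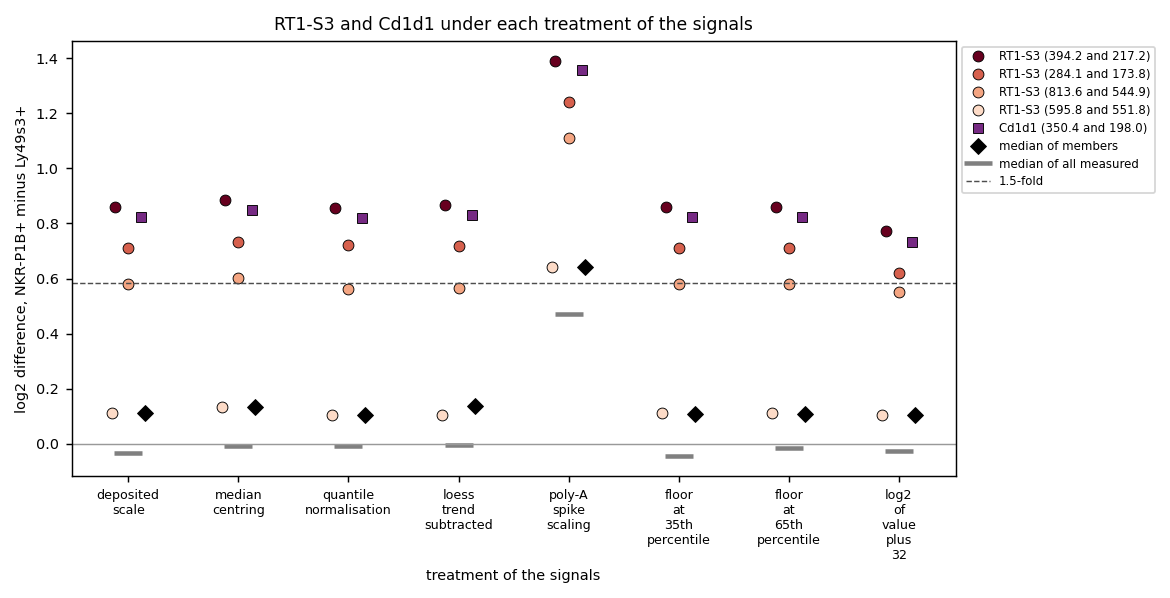
Log2 difference, NKR-P1B+ minus Ly49s3+, of the 4 RT1-S3 probe sets (circles) and Cd1d1 (squares), labelled with their signals on the NKR-P1B+ and the Ly49s3+ array, and the medians of all measured class I probe sets (diamonds) and of all measured probe sets (grey bars), under 8 treatments of the signals. All RT1-S3 and Cd1d1 points stay above 0 and above the grey bar of their column, and the poly-A spike scaling lifts the whole column.

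RT1-S3 and Cd1d1 kept their direction under each treatment of the signals that was tried. Without the spike scaling, the log2 difference of Cd1d1 ranged from 0.73 to 0.85. The RT1-S3 probe sets of 394 and 217, of 284 and 174, of 814 and 545, and of 596 and 552 ranged from 0.77 to 0.88, from 0.62 to 0.73, from 0.55 to 0.60 and from 0.10 to 0.13. With the spike scaling, Cd1d1 was 0.88 above the median of all measured probe sets, and the RT1-S3 probe sets were 0.92, 0.77, 0.64 and 0.17 above it.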

How the data were processed

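Both arrays (Affymetrix Rat Genome 230 2.0) were made from biotinylated cRNA of 3 ug total RNA, per the labels. Each deposited value is the linear intensity of a probe set, which MAS5 computed, per the submitters' processing notes, from matched and mismatched probes. The sources used here give no MAS5 version, scaling target or detection calls, but both arrays had a 2% trimmed mean of 100.04. No sample column was left unused. Actin control probe sets gave 3′ over 5′ ratios of 11.9 (NKR-P1B+) and 13.2 (Ly49s3+), so the 3′ end was read far more strongly than the 5′ end on both arrays. Whether this bears on the disagreement between probe sets of a gene was not tested. The arrays' number limits the precision.

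Symbols came from the platform annotation (20832 probe sets with 1 symbol, 436 with several, 9831 with none listed). By gene number, 28 of the 29 class I genes were in the GRCr8 RefSeq table, all with the same symbol; RT1-A was not. Values of all 31042 non-control probe sets were floored at the 50th percentile (20.4) and converted to log2. Genes in lists were represented by their probe set with the highest mean signal. With no residual degrees of freedom, no p-value was computed. Calculations used Python 3.11.15, numpy 2.4.6, pandas 2.3.3 and statsmodels 0.14.6, and were tested on simulated arrays.

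The members, lists and settings were chosen with earlier results of these data known. Named were all member genes and class II genes, pathway genes at least 1.5-fold apart or among the 4 brightest of their list, and the brightest and defining markers, with other genes named after their values were seen where they bear on a result (regulators of class I and class II, neighbours in the gene order, and markers that ran against their list). The other settings were median centring, quantile normalisation, a loess trend (span 0.3), poly-A spike scaling, floors at the 35th and 65th percentiles, log2 of the value plus 32, 1 probe set per gene, no probe sets of several genes, and no bounds.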

Additional observations from a re-analysis of the deposited data

How the results depend on the processing

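With the poly-A spikes, whose 17 measured probe sets were 0.53 lower (log2) on the NKR-P1B+ array, as scale, 26 class I probe sets were at least 1.5-fold higher on that array in place of 3 and their median was 0.64, while 35.6% of all measured probe sets were as far apart in that direction; 23 further pathway genes in place of 1 were at least 1.5-fold higher, and their median was 0.54. The hybridisation spikes, added after labelling, had a median difference of 0.01, and which scale is right was not tested. Relative to all measured probe sets the class I median was 0.17 with the spike scaling and 0.14 without. With 1 probe set per gene, 1 of 26 measured class I genes was 1.5-fold apart, toward NKR-P1B+ (background 5.11%). Without RT1-S3 (chosen after seeing the data), 1 of 39 class I probe sets was, which is 2.56% (background 4.95%). Neither count is above its background. Pathway genes at 1.5-fold numbered 2 toward NKR-P1B+ and 2 toward Ly49s3+ for a floor at the 35th percentile, and 0 and 0 for the 65th percentile or log2 of the value plus 32. Under the 6 settings of scale and floor other than the spikes, 35 of 43 single probe sets kept their sign. Of the others, only the B2m probe set at 0.02 crossed 0, to −0.01. The rest were low signals that became 0 when the floor at the 65th percentile covered both arrays. The class I median stayed between 0.11 and 0.14 (0.09 with 1 probe set per gene). No class I probe set at 1.5-fold changed sign, and under such settings none of that size was likely to. With 1 array per population, no array could be left out. Signals near the floor limit what can be said of Fcgrt, Hfe, Mr1, RT1-A, RT1-T24-4 and the dim probe sets of Psme1, Tap1 and Pdia3.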
